A study of Mus musculus with 6 samples.

Results

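The genes described here are a list of 40 that copy and maintain DNA: factors that license and fire replication origins, the polymerase and primase subunits, the sliding clamp PCNA and its loader, strand-binding and flap-processing proteins, enzymes of nucleotide supply, chromatin assembly and maintenance factors, mismatch and break repair proteins, and the transcription factor E2f1. A member was read from a probe set annotated to that gene alone, and where there were several, from the one with the highest mean signal over the 6 arrays. Of the 40 genes, 38 had such a probe set, out of 8251 genes with one on the array. Pole had none, and Tyms shared its probe sets with Tyms-ps, so neither has a value. A probe set was tested if its mean signal over the 6 arrays was at least 75.2, which is the median of that mean. This kept 6212 of 12422 probe sets and 24 of the 38 members. The other 14 members were dimmer and are described by their signals, with no test: Orc1, Orc2, Cdc6, Gmnn, Cdc7, Dbf4, Prim1, Prim2, Rfc4, Rpa2, Dut, Msh6, Exo1 and Brca1.

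The cells were C2AS12 mouse myoblasts, a line derived from C2 muscle precursors, and every culture carried a recombinant adenovirus encoding p300, a histone acetyltransferase and transcriptional coactivator. There were 3 treatments: virus for wild-type p300 with doxycycline, virus for mutant p300, and virus for wild-type p300 alone. Each was sampled after 24 h in low-serum differentiation medium and at 0 h, before that medium was added, so that 6 arrays cover the 6 combinations once each. As the outcome, the submitters state apoptotic death for the doxycycline and mutant treatments and survival for wild-type p300 alone. The labels name neither the mutation nor what doxycycline does to the virus, and no culture without virus was analysed here. The series is described as having biological replicates, but no treatment and time has a second array. No p-value therefore measures variation between cultures of one treatment. For the change over time, p-values rest in part on the spread of that change over the 3 treatments. Between the outcomes they rest in part on the differences between the doxycycline and mutant arrays, taken as replicates of death. In both cases the limma fit moves the spread of each probe set toward that of probe sets with like signal. The p-values therefore lean on other probe sets as well as on these few arrays.

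DNA replication is prepared in G1, when the origin recognition complex, Cdc6 and Cdt1 load the MCM helicase onto origins. In S phase the kinase Cdc7 with Dbf4, and Cdc45, turn the loaded helicase on. Meanwhile geminin (Gmnn) and proteolysis hold Cdt1 back so that no origin is licensed again. Polymerase alpha with primase starts each strand, PCNA holds polymerase delta on DNA after the RFC complex has loaded it, and ribonucleotide reductase supplies the deoxynucleotides. Many of these genes are transcribed at the border of G1 and S phase under E2F transcription factors. Myoblasts leave the cell cycle when they differentiate in low serum.

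The cells carried the defining muscle regulators. All 7 myoblast markers were above the threshold for testing, and myogenin rose by 2.20 ± 0.04 log2 units over 24 h (mean ± SD over 3 treatments, adjusted p = 0.000119). Markers of other cell types were partly absent. Under the signal floor of 16.4 on every array lay 3 of 6 macrophage and leukocyte markers (Adgre1, Ptprc and Lyz2), 2 of 5 endothelial ones (Cdh5 and Tie1), 1 of 6 epithelial ones (Epcam) and 0 of 3 measured adipocyte ones. Above the threshold for testing were 2, 0, 1 and 1 of the same lists. The floor is the 25th percentile of all signals, and lower values were raised to it before logarithms were taken. Trimmed mean signals were alike on the arrays (199.34 to 199.96), as were median signals (68.7 to 78.05) and the share of probe sets under the floor (23.3% to 26.5%). Whether the deposited signals had been scaled to a common mean is not stated, so the likeness of the trimmed means is no measure of array quality.

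Over 24 h in differentiation medium most of the replication genes fell. Of the 24 tested members, 20 were called lower at 24 h than at 0 h (limma on log2 signal with treatment as a block, Benjamini-Hochberg adjusted p under 0.05 over all 6212 probe sets), 0 were called higher (0 also at an unadjusted p under 0.05) and 4 were not called. Among all probe sets tested, 9.00% were called lower and 7.24% higher. The median change of the 24 members was -1.08 log2 units, against 0.00 for all probe sets tested. It was -0.98 with doxycycline, -1.14 with mutant and -1.06 with wild-type p300. In 19 of the 24 members every signal at 24 h lay under every signal at 0 h, a pattern found in 15.5% of all probe sets tested, while the reverse order held in 12.7% of them and in 0 members. In bulk RNA, fewer cells of a type and less RNA per cell cannot be told apart. With no filter on dim probe sets 0 members were called in either direction, as were 0 of all 12422 probe sets; with treatment left out as a block 14 members were called lower.

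The filter bears on part of the members called lower and of those whose times did not overlap. Cdc45, Pola1, Rfc5, Lig1, Chaf1a, Chaf1b and Uhrf1 passed it only through their 0 h signals, with a mean at 24 h under 75.2. All 7 are among the 19 members without overlap. Their call as lower and their lack of overlap are therefore partly fixed by the filter. The other 17 tested members had means at or above 75.2 at both times, and 13 of these were called lower. Among these 17, the times overlapped for Cdt1, Pold2, Rfc1, Rfc3 and E2f1 and for no other.

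**Figure D1:**
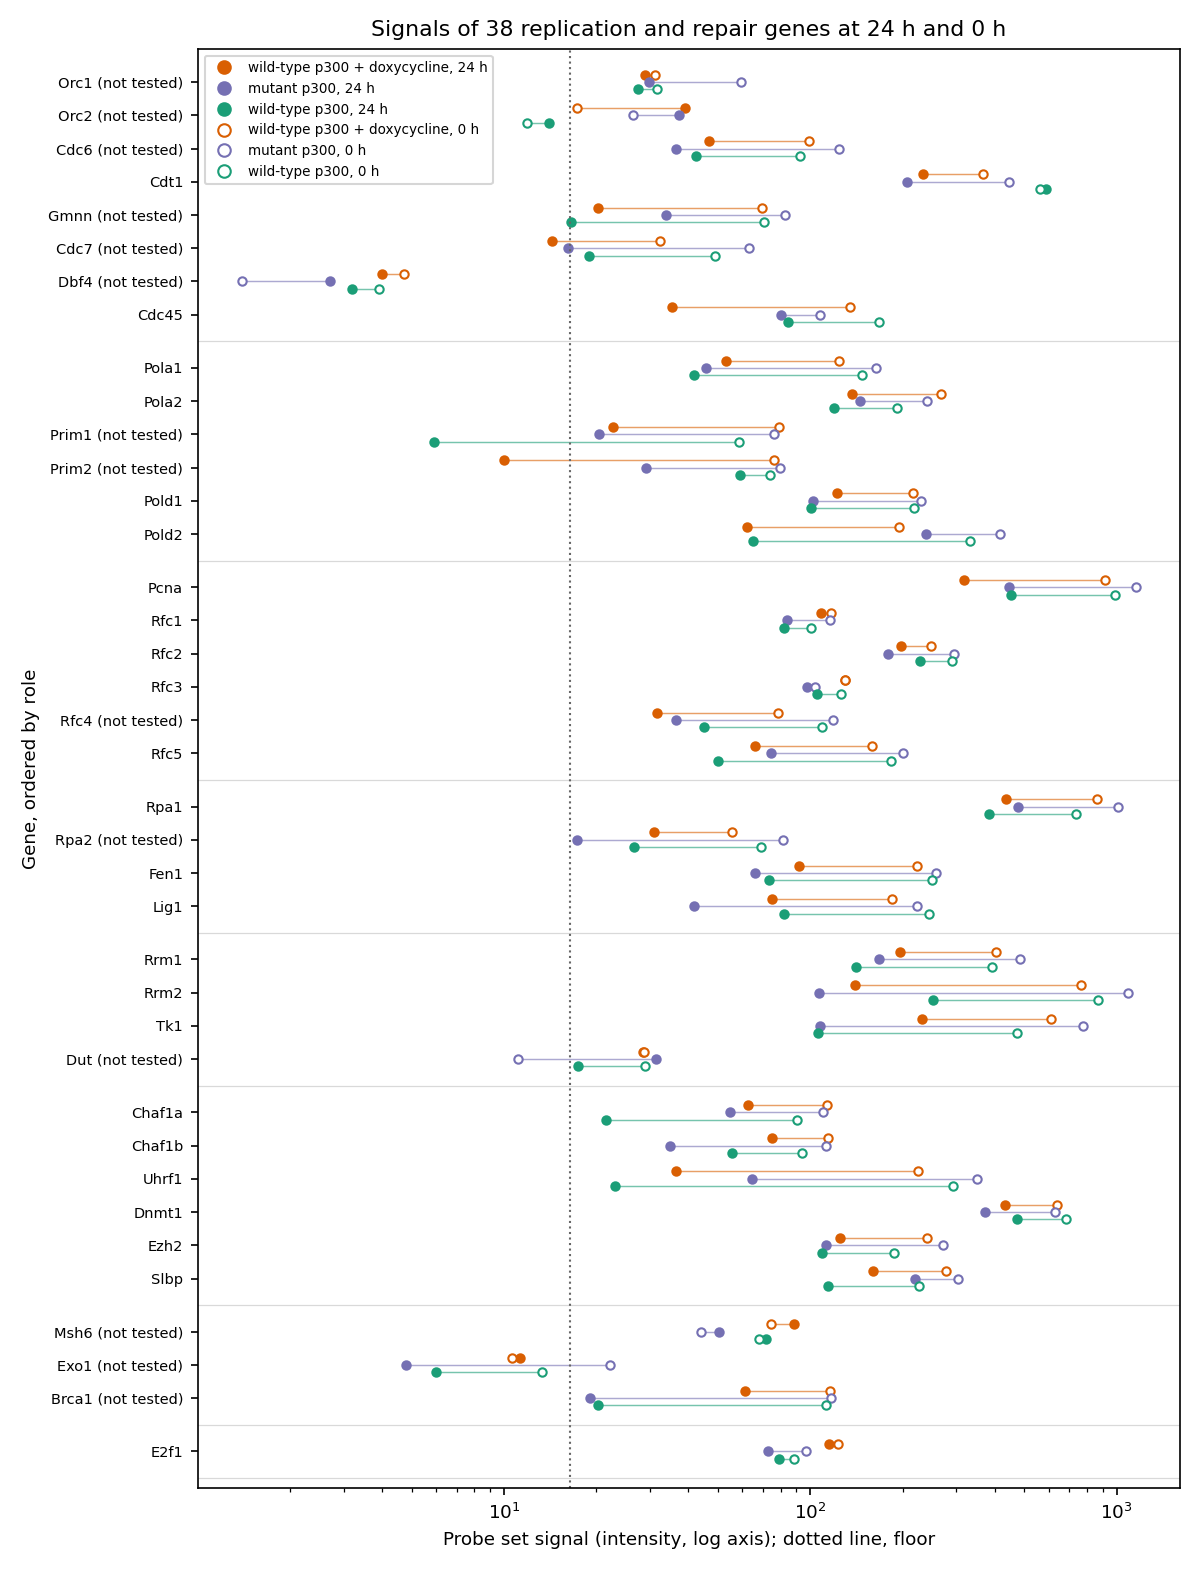
Signals of the 38 measured genes on a log axis (array intensity), grouped by role; filled points are 24 h, open points 0 h, a line joins the times of one treatment, and the dotted line is the floor of 16.4. Filled points sit to the left of open ones in most rows. On the probe sets shown, Cdt1, Rfc1, Rfc3 and E2f1 are the tested genes without a call over time.

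A sequence feature that the choice of genes did not use was looked for in their promoters. RefSeq promoter windows (GRCm38.p6, 250 bases before the start to 50 after it) were found for 35 of the 40 members, in 44 windows. Each was searched on either strand for TTTGGCGC, TTTCGCGC, TTTCCCGC and TTTGCCGC, letter strings of the kind that E2F factors bind, none of which contains another. At least 1 such string stood in the windows of 11 of the 35 members (31.4%), against 704 of 27025 genes with a window (2.6%) and 200 of 3939 tested genes (5.08%). The 11 were Orc1, Cdc6, Cdt1, Pola1, Pold1, Rfc3, Lig1, Uhrf1, Dnmt1, Ezh2 and Msh6. Among tested genes called lower over time the share was 8.66% (33 of 381), and among members called lower it was 31.6% (6 of 19). CCAAT stood in 57.1% of the members, 41.1% of all genes, 43.4% of tested genes and 57.5% of tested genes called lower. TTTGAA or TTTAAA stood in 28.6% of the members and 36.8% of those called lower, against 30.6% of all genes, 22.2% of tested genes and 32.0% of tested genes called lower. These letter matches describe the windows and do not show binding.

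Windows of 4 genes that hold an E2F string are printed because these genes behaved differently on the arrays: Pola1 and Uhrf1 fell in all treatments, Cdt1 differed between the outcomes at 24 h, and Rfc3 was not called. Each runs 5′ to 3′ along its gene's strand, and capitals mark the E2F strings on either strand.
Pola1, chrX:93632106-93632405, strand minus: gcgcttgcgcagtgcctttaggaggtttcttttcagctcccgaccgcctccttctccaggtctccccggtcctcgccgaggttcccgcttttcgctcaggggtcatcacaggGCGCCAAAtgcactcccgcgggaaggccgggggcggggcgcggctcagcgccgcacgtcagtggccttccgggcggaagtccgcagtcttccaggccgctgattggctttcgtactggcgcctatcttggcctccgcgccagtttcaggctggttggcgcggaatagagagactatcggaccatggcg
Uhrf1, chr17:56304063-56304362, strand plus: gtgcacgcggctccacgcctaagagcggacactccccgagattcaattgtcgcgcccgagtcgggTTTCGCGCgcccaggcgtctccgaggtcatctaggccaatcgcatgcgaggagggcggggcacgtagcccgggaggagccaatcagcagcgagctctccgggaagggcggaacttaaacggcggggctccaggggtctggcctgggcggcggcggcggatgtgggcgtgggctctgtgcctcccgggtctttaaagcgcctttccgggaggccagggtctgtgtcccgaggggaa
Cdt1, chr8:122567765-122568064, strand plus: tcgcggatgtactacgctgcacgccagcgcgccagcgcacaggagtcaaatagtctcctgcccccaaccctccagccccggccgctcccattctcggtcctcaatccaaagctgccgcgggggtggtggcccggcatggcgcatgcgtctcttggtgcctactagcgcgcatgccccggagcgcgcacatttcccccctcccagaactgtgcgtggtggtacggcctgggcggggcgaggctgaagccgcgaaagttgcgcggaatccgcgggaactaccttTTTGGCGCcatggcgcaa
Rfc3, chr5:151651159-151651458, strand minus: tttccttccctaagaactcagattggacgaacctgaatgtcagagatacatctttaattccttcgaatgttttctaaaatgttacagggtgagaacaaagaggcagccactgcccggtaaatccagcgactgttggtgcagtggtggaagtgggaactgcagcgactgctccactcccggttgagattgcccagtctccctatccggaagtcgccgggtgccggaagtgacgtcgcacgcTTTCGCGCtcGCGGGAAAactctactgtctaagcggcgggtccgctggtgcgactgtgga
The Cdt1 string lies close to the 3′ end of its window, past the transcription start, while Rfc3, which was not called over time, holds 2 strings a few bases apart.

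Of the origin genes, Cdt1 and Cdc45 were bright enough to test, Cdc45 only through its 0 h signals. Cdc45, the helicase cofactor needed for firing, read 35.4 with doxycycline, 80.3 with mutant and 84.6 with wild-type p300 at 24 h, against 134.8, 107.3 and 168.0 at 0 h in the same order. It fell by 1.11 ± 0.76 log2 units (mean ± SD over 3 treatments, adjusted p = 0.0320), and the fall was smallest with mutant p300. Among the untested origin genes, Cdc6, which loads the helicase with Cdt1, read 46.7 with doxycycline, 36.5 with mutant and 42.3 with wild-type p300 at 24 h, against 99.0, 123.7 and 92.9 at 0 h. Gmnn, the inhibitor of Cdt1, read 20.3 with doxycycline, 33.8 with mutant and 16.5 with wild-type p300 at 24 h, against 69.3, 82.8 and 70.5 at 0 h. Cdc7, the kinase that fires origins, read 14.4 with doxycycline, 16.2 with mutant and 18.9 with wild-type p300 at 24 h, against 32.3, 63.1 and 48.9 at 0 h. For Cdc6, Gmnn and Cdc7, and also for Orc1, every 24 h signal lay under every 0 h signal. The share of untested probe sets with this pattern was not computed. The Cdc7 signals with doxycycline and mutant p300 at 24 h lay under the floor of 16.4. Orc1, the largest subunit of the origin recognition complex, stayed within 27.3 to 29.8 at 24 h and 31.2 to 59.2 at 0 h. With the threshold for testing lowered to 2 times the floor, its change of -0.44 log2 units was not called (limma, adjusted p = 0.48). Orc2, another subunit of that complex, read 38.9 with doxycycline, 37.2 with mutant and 14.0 with wild-type p300 at 24 h, against 17.3, 26.4 and 11.9 at 0 h, so its times overlapped. Dbf4, the activating partner of Cdc7, lay under the floor on all 6 arrays.

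All 4 tested polymerase genes were called lower, of which Pola1 passed the filter only through its 0 h signals. Pola1, the catalytic subunit of polymerase alpha, read 53.0 with doxycycline, 45.6 with mutant and 41.8 with wild-type p300 at 24 h, against 124.3, 163.8 and 148.0 at 0 h. The groups did not overlap, and the fall was 1.63 ± 0.35 log2 units (adjusted p = 0.00187). Pola2, its B subunit, and Pold1, the catalytic subunit of polymerase delta, fell by 0.79 ± 0.15 and 1.04 ± 0.19 log2 units (adjusted p = 0.00534 and 0.00225). Their second, untested probe sets did not follow: that of Pola2 changed by -2.00 with doxycycline, -0.24 with mutant and 0.80 with wild-type p300, and that of Pold1 by 0.69, -0.37 and -0.27 in the same order. Pold2, the accessory subunit of polymerase delta, read 62.2 with doxycycline, 238.7 with mutant and 64.9 with wild-type p300 at 24 h, against 194.1, 415.0 and 332.5 at 0 h. It fell in each treatment, by 1.60 ± 0.78 log2 units (adjusted p = 0.00427), although its mutant array at 24 h was above its doxycycline array at 0 h. Its only probe set is of the relaxed design marked _r_at. The primase subunits were too dim to test. Prim1, the catalytic subunit, read 22.7 with doxycycline, 20.5 with mutant and 5.9 with wild-type p300 at 24 h, against 79.1, 76.3 and 58.5 at 0 h. Prim2, the large subunit, read 10 with doxycycline, 29.0 with mutant and 59.0 with wild-type p300 at 24 h, against 76.4, 79.6 and 73.7 at 0 h. Both were lower at 24 h on every array, with Prim2 nearest its 0 h level in the wild-type cells.

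The clamp and its loader moved unevenly. Pcna, the sliding clamp, read 318.3 with doxycycline, 446.9 with mutant and 453.5 with wild-type p300 at 24 h, against 913.9, 1153.0 and 986.5 at 0 h. It fell by 1.34 ± 0.20 log2 units and had the lowest adjusted p of the members (0.000111). Of the loader's subunits, Rfc5 read 65.9 with doxycycline, 74.6 with mutant and 49.8 with wild-type p300 at 24 h, against 158.9, 200.5 and 183.3 at 0 h. Rfc5 fell by 1.53 ± 0.32 log2 units (adjusted p = 0.00126) on this probe set. Its second, dimmer probe set, which was not tested, showed no such fall, with 50.3 with doxycycline, 61.7 with mutant and 66.0 with wild-type p300 at 24 h against 51.4, 54.2 and 50.6 at 0 h. Rfc2 fell by 0.46 ± 0.22 log2 units (adjusted p = 0.0435). Rfc4, untested, read 31.5 with doxycycline, 36.5 with mutant and 44.9 with wild-type p300 at 24 h, against 78.7, 119.0 and 108.9 at 0 h. The groups of Rfc4 did not overlap.

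The other loader subunits, Rfc1 and Rfc3, were not called. Rfc1, the large subunit, read 108.2 with doxycycline, 83.8 with mutant and 82.1 with wild-type p300 at 24 h, against 116.6, 115.9 and 100.9 at 0 h (change -0.29 ± 0.18 log2 units, adjusted p = 0.309). Rfc3 read 129.8 with doxycycline, 97.2 with mutant and 105.3 with wild-type p300 at 24 h, against 129.5, 103.4 and 125.8 at 0 h (change -0.11 ± 0.13 log2 units, adjusted p = 0.686). The times overlapped for both genes. The median change of the 5 tested clamp and loader genes was -0.46 log2 units, with 3 called lower. Among these 3, Rfc5 passed the filter only through its 0 h signals.

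At the lagging strand all 3 tested genes were called lower, of which Lig1 passed the filter only through its 0 h signals. On the brighter probe sets, Lig1, the ligase that seals Okazaki fragments, read 74.8 with doxycycline, 41.6 with mutant and 81.9 with wild-type p300 at 24 h, against 184.4, 223.5 and 244.7 at 0 h, a fall of 1.77 ± 0.59 log2 units (adjusted p = 0.00156). Fen1, the flap endonuclease that removes their primers, read 91.6 with doxycycline, 65.9 with mutant and 73.3 with wild-type p300 at 24 h, against 222.4, 257.1 and 250 at 0 h, a fall of 1.67 ± 0.35 log2 units (adjusted p = 0.000552). On these probe sets both genes were lower at 24 h on every array. A second, untested Lig1 probe set read 68.2 with doxycycline, 32.9 with mutant and 36.8 with wild-type p300 at 24 h, against 44.7, 40.3 and 43.6 at 0 h, with no common direction. Rpa1, the large subunit of the single-strand binding protein RPA, fell by 1.01 log2 units with an SD of 0.07, so its fall was nearly equal in the 3 treatments (adjusted p = 0.000236). Its partner Rpa2, untested, read 30.9 with doxycycline, 17.3 with mutant and 26.5 with wild-type p300 at 24 h, against 55.5, 81.7 and 69.1 at 0 h.

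The nucleotide supply genes had the largest median change of the roles, -2.13 log2 units over 3 tested genes. Rrm2, the small subunit of ribonucleotide reductase that limits its activity to S phase, read 140.3 with doxycycline, 106.9 with mutant and 252.0 with wild-type p300 at 24 h, against 767.4, 1090.0 and 871.6 at 0 h. The 0 h signal was 5.47-fold the 24 h signal with doxycycline, 10.2-fold with mutant and 3.46-fold with wild-type p300. On average Rrm2 fell by 2.53 ± 0.78 log2 units (adjusted p = 0.000325). Rrm1, the large subunit, read 197.0 with doxycycline, 168.0 with mutant and 141.1 with wild-type p300 at 24 h, against 403.9, 483.0 and 391.1 at 0 h. Rrm1 fell by 1.34 ± 0.27 log2 units (adjusted p = 0.000343). Tk1, the thymidine kinase of the salvage pathway, read 231.8 with doxycycline, 107.9 with mutant and 105.7 with wild-type p300 at 24 h, against 609.6, 774.6 and 473.8 at 0 h. It fell by 2.13 ± 0.72 log2 units (adjusted p = 0.000666), and no gene of the 3 had overlapping times. A second Tk1 probe set lay under the floor on 5 arrays and read 84.5 on the doxycycline array at 24 h. Dut, the dUTPase that keeps uracil out of DNA, was dim, with 28.4 with doxycycline, 31.3 with mutant and 17.5 with wild-type p300 at 24 h, against 28.6, 11.1 and 28.9 at 0 h; its direction differed between treatments.

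All 6 chromatin genes were tested and called lower. Of these, Chaf1a, Chaf1b and Uhrf1 passed the filter only through their 0 h signals, so their calls are partly fixed by it. Uhrf1, which brings the maintenance methylase Dnmt1 to newly copied DNA, read 36.4 with doxycycline, 64.3 with mutant and 23.0 with wild-type p300 at 24 h, against 223.9, 349.7 and 291.4 at 0 h. It fell by 2.91 ± 0.66 log2 units, the largest change of the 24 tested members (adjusted p = 0.000206). Dnmt1 itself fell by 0.62 ± 0.13 log2 units (adjusted p = 0.00363); its second probe set, under the floor on 2 arrays and untested, changed by -0.52 with doxycycline, 1.95 with mutant and 0.10 with wild-type p300. Chaf1a, the large subunit of the chromatin assembly factor CAF-1, read 62.6 with doxycycline, 54.7 with mutant and 21.6 with wild-type p300 at 24 h, against 113.2, 110.1 and 90.2 at 0 h. It fell by 1.31 ± 0.66 log2 units (adjusted p = 0.0186), most in the wild-type cells. Chaf1b, the middle subunit of CAF-1, read 74.8 with doxycycline, 34.8 with mutant and 55.5 with wild-type p300 at 24 h, against 113.9, 112.2 and 93.9 at 0 h (change -1.02 ± 0.59, adjusted p = 0.0349). Ezh2, the methylase of histone H3 lysine 27, and Slbp, the protein that binds the stem-loop of replication-dependent histone mRNA, fell by 1.0 ± 0.25 and 0.75 ± 0.27 log2 units (adjusted p = 0.00303 and 0.00843).

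No repair member was bright enough to test. Brca1, which acts in repair by homologous recombination, read 61.1 with doxycycline, 19.1 with mutant and 20.2 with wild-type p300 at 24 h, against 116.2, 116.7 and 112.2 at 0 h. Msh6, the mismatch recognition subunit, read 88.2 with doxycycline, 50.5 with mutant and 71.9 with wild-type p300 at 24 h, against 74.6, 44.0 and 68.1 at 0 h. Brca1 was lower at 24 h on every array, while each Msh6 signal stood slightly above that of its treatment at 0 h. Exo1, the exonuclease of mismatch repair, stayed between 4.8 and 22.2 on all arrays. With the threshold for testing lowered to 2 times the floor, an alternative chosen after the data were seen, 33 members were tested and 25 were called lower over time, where 6.57% of 8071 probe sets were called lower and 5.34% higher. The 6 gained were Brca1, Cdc6, Gmnn, Prim1, Rfc4 and Rpa2, with falls of 1.33 to 2.00 log2 units, and Rfc2 was lost (adjusted p = 0.0554). Of the 6, Gmnn, Prim1 and Rpa2 passed that threshold (32.8) only through their 0 h signals, so their calls are partly fixed by it.

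E2f1, the transcription factor that drives many of these genes, was not called. It read 115.5 with doxycycline, 73.0 with mutant and 78.8 with wild-type p300 at 24 h, against 123.4, 96.7 and 88.4 at 0 h (change -0.22 ± 0.16 log2 units, adjusted p = 0.459). That probe set is marked _f_at, which stands for sequence shared within a family. A second, dimmer one, not tested, read 44.0 with doxycycline, 34.4 with mutant and 32.1 with wild-type p300 at 24 h, against 63.3, 66.3 and 60.2 at 0 h. On the second probe set the times did not overlap, with a mean change of -0.79 ± 0.23 log2 units.

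**Figure D2:**
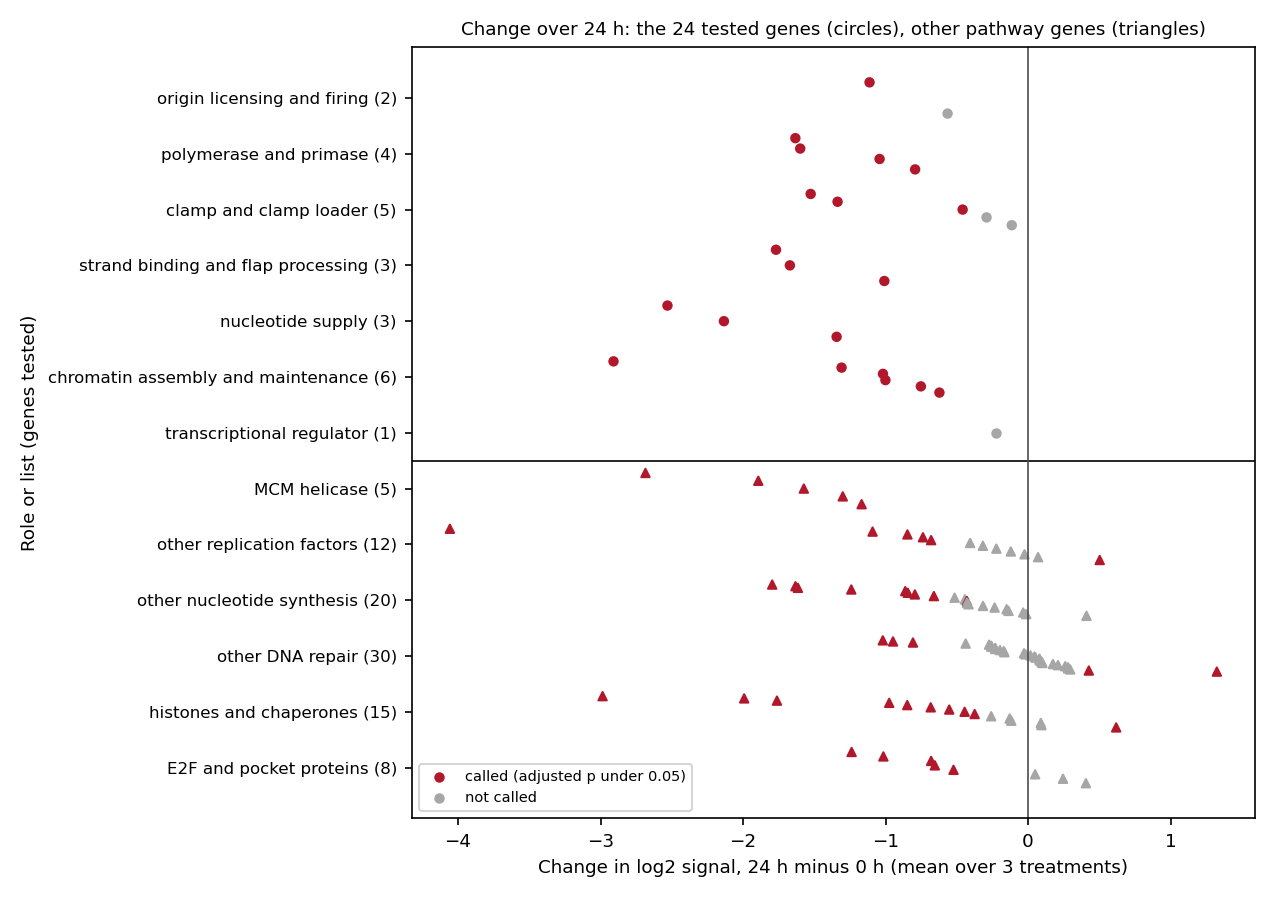
Change in log2 signal over 24 h, mean over 3 treatments, for the 24 tested genes by role (circles) and for tested genes of the same pathways outside the list (triangles); red is called at an adjusted p under 0.05, and the number of genes stands after each name. The circles lie between -2.91 and -0.11, and the triangles of DNA repair gather around 0.

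Genes of the same pathways outside the 40 were read from 6 lists that were chosen with earlier results of these data known. Of their 174 genes, 90 were tested. Over time 36 of these were called lower, 4 higher and 50 not. Over all probe sets tested the shares were 9.00% lower and 7.24% higher, which also stand behind the counts of each list below. Which list genes passed the filter only through their 0 h signals was not counted. The MCM helicase had 5 of 5 tested subunits called lower, with a median change of -1.57 log2 units; Mcm5 fell by 2.68 ± 0.55 and Mcm3 by 1.89 ± 0.43. Of 12 other replication factors 5 were lower and 1 higher (median -0.36), the largest changes being those of Top2a, the topoisomerase that untangles sister chromatids (-4.06 ± 0.57), and of the RPA subunit Rpa3 (-1.09 ± 0.29). The topoisomerase Top1 rose by 0.50 ± 0.14. Of 20 other nucleotide synthesis genes 9 were lower (median -0.44), led by the mitochondrial folate enzyme Mthfd2 (-1.80 ± 0.35) and the nucleotide pyrophosphatase Dctpp1 (-1.63 ± 1.24).

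Of 15 histone and chaperone genes 9 were lower and 1 higher (median -0.44): the chromatin protein Hmgb2 fell by 2.99 ± 0.11 and the histone variant H2ax by 1.99 ± 0.24 log2 units, while the linker histone H1f2 rose by 0.62 ± 0.14. Of 8 E2F and pocket protein genes 5 were lower (median -0.59), among them the pocket protein Rbl1 (-1.24 ± 0.17) and the repressor E2f8 (-1.02 ± 0.35). DNA repair was different in its counts: of 30 tested genes 3 were lower, 2 higher and 25 not called, with a median of 0.03. The deubiquitinase Usp1 (-1.02 ± 0.15) and the recombination genes Brca2 (-0.95 ± 0.14) and Rad51ap1 (-0.81 ± 0.20) fell. The Fanconi gene Fancc (1.33 ± 0.72) and the end-joining gene Xrcc5 (0.43 ± 0.27) rose. The adjusted p of Xrcc5 was 0.04995, just inside the threshold. Against the share of 9.00% over all probe sets, the count of 3 in 30 repair genes is close to the background.

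Between the outcomes, one member stood apart at 24 h. Cdt1, the licensing factor, read 233.3 with doxycycline and 207.0 with mutant p300, where cells die, against 588.9 with wild-type p300, where they survive. At 0 h it read 366.0 with doxycycline and 446.7 with mutant, against 562.9 with wild-type p300. It was therefore lower by 1.42 ± 0.20 log2 units at 24 h (mean of the doxycycline and mutant arrays minus the wild-type array, ± SE of the limma fit, adjusted p = 0.0181). Both dying treatments lay under the wild-type array, which read 2.52-fold the doxycycline and 2.84-fold the mutant signal. Of the 24 tested members Cdt1 alone was called lower at 24 h and 0 were called higher, against 0.724% and 0.0483% of all probe sets tested. At an unadjusted p under 0.05 there were 2 lower and 3 higher.

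A second tested Cdt1 probe set, marked _f_at, gave the same order. It read 88.4 with doxycycline and 105.2 with mutant, against 378.5 with wild-type p300 at 24 h. At 0 h it read 242.1 with doxycycline and 255.4 with mutant, against 400.2 with wild-type p300. The difference at 24 h was -1.97 ± 0.22 log2 units (adjusted p = 0.00849). Both probe sets thus placed the doxycycline and mutant cells under the wild-type cells at each time, by more at 24 h.

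At 0 h the Cdt1 difference was -0.48 log2 units (unadjusted p = 0.0448, adjusted p = 0.999), and limma called no member in either direction (at an unadjusted p under 0.05, Cdt1 alone was lower and 0 were higher). Of all probe sets tested 0.00% were called lower and 0.00% higher at 0 h, with 161 lower and 101 higher at an unadjusted p under 0.05. Over time Cdt1 changed by -0.65 with doxycycline, -1.11 with mutant and 0.07 with wild-type p300 (-1.45, -1.28 and -0.08 on the second probe set). The second probe set's mean change of -0.94 ± 0.75 was called lower (limma, adjusted p = 0.0339). With the mean of both probe sets the change of -0.75 was also called lower (adjusted p = 0.0454). The first probe set's mean change of -0.56 ± 0.59 was not called (adjusted p = 0.0850). The test of whether the change over time differed between the outcomes gave -0.94 log2 units (unadjusted p = 0.0100, adjusted p = 1.0). That interaction called 0.00% of all probe sets lower and 0.00% higher, with 105 and 92 at an unadjusted p under 0.05. Among the members 2 were lower and 0 higher at an unadjusted p under 0.05, Cdt1 and Rrm2. That fit leaves out the pairing of the times within a treatment. With treatment as a block, an alternative chosen after the data were seen that leaves 1 residual degree of freedom, the adjusted p was 0.0551 for Cdt1 (0.0223 on its second probe set) and 0.0468 for Rrm2. It called Rrm2 alone of the 24 members lower and 0 higher, against 0.596% of all probe sets lower and 0.258% higher.

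All of these differences rest on 1 wild-type array at each time, assumed to vary like the others, and on 2 residual degrees of freedom. Without the variance trend in limma the Cdt1 call at 24 h was lost (adjusted p = 0.0840), and so it was with no filter on dim probe sets (adjusted p = 0.205); over all alternatives the adjusted p ran between 1.34e-05 and 0.205 and the difference between -1.79 and -1.34. Some other values moved with the outcome at 24 h, and some did not. The ratio of actin signals from the 3′ and 5′ probe sets was 1.45 with doxycycline and 1.49 with mutant, against 1.33 with wild-type p300. That of Gapdh was 0.859 with doxycycline and 0.905 with mutant, on both sides of the wild-type array (0.875). The spike-in controls stood at 0.13 with doxycycline and 0.23 with mutant, against -0.18 with wild-type p300, in log2 units relative to their mean. The summed endothelial markers read 120.4 with doxycycline and 78.9 with mutant, against 230.8 with wild-type p300 at 24 h, of which Tek gave 4.0, 2.8 and 116.3 in the same order; Cdh5 and Tie1 were under the floor on all arrays. Summed macrophage and leukocyte markers were 589.8 with doxycycline and 489.2 with mutant, against 552.6 with wild-type p300. In the same order the sums were 260.1 and 252.4, against 255.8, for epithelial and 265.8 and 226.4, against 317.4, for adipocyte markers. Summed myoblast markers were 3773.0 with doxycycline and 3362.3 with mutant, against 3138.1 with wild-type p300. Of these sums Myod1 gave 813.0, 732.1 and 419.1 in the same order. The rest of the sum was higher than in the wild-type array with doxycycline and lower with mutant. The part of these in the Cdt1 difference was not tested. Scaled to the spike-in controls, the Cdt1 difference was -1.79 log2 units, where the median of all probe sets was -0.32.

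**Figure D3:**
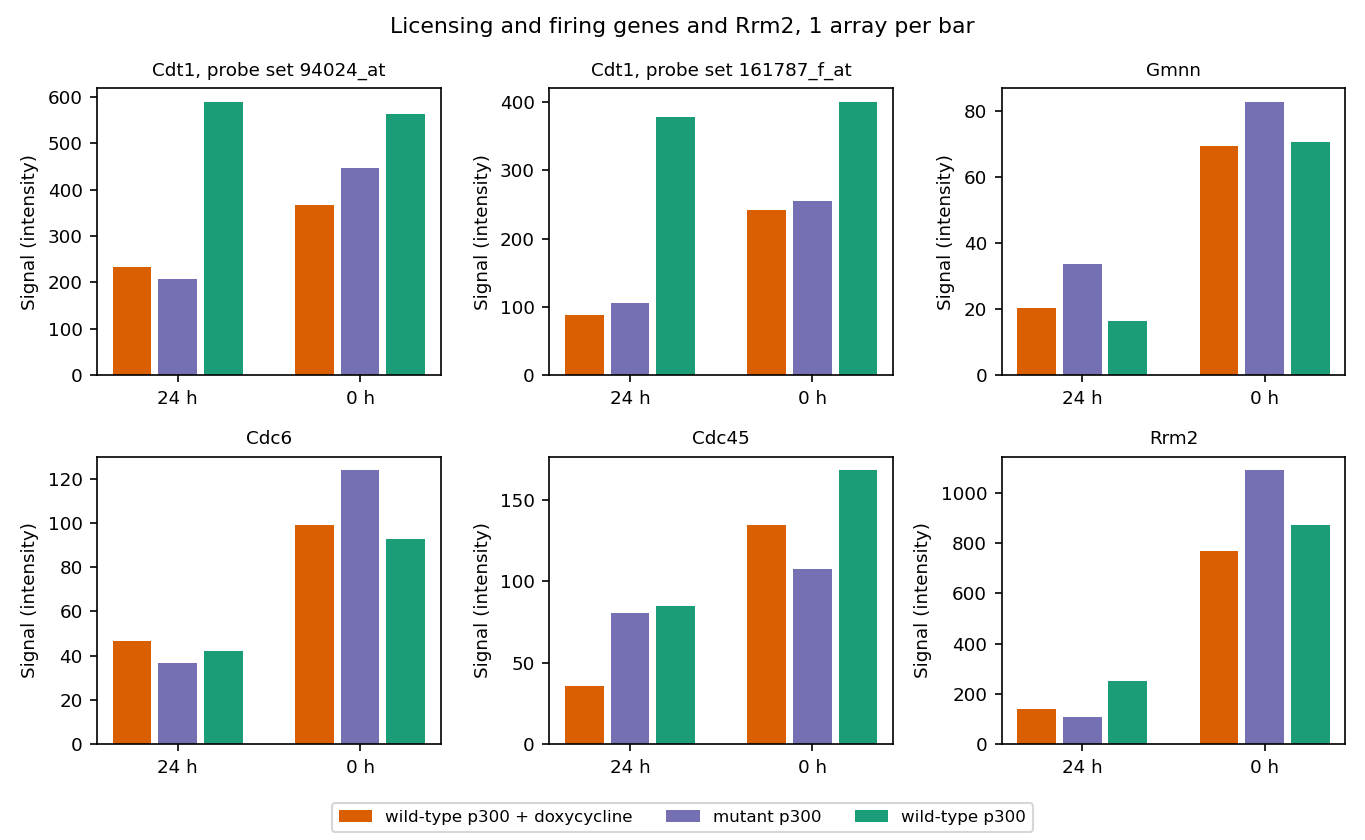
Signals (linear intensity, bars from 0) of both Cdt1 probe sets, Gmnn, Cdc6, Cdc45 and Rrm2 by time, 1 array per bar, with doxycycline, mutant and wild-type p300 from left to right. The wild-type bar of Cdt1 stays near its 0 h height at 24 h (588.9 and 562.9 for the first probe set), while the Cdc6 and Gmnn bars are lower at 24 h in all treatments.

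Beyond Cdt1, 4 members had an unadjusted p under 0.05 at 24 h without being called. For Rrm2 the difference was -1.04 ± 0.26 log2 units (adjusted p = 0.148), with its wild-type signal 1.80-fold the doxycycline and 2.36-fold the mutant signal. Its 0 h signals, 767.4 and 1090.0 against 871.6, lay on both sides of the wild-type array, and its interaction was -1.11 log2 units (unadjusted p = 0.015, adjusted p = 1.0). Over the alternatives the adjusted p at 24 h ran between 0.00266 and 0.541. Rrm2 was called when scaled to the spike-in controls (adjusted p = 0.00474), where 6.76% of all probe sets were called lower. It was also called with any one array of the dying treatments left out, when 1 residual degree of freedom remains and 2.08% to 3.93% of all probe sets were called lower.

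Of the 6 chromatin genes 3 had uncalled differences of the other sign at an unadjusted p under 0.05. The difference was 1.44 ± 0.41 log2 units for Chaf1a (adjusted p = 0.209), 1.07 ± 0.43 for Uhrf1 (adjusted p = 0.371) and 0.72 ± 0.25 for Slbp (adjusted p = 0.306). Leaving out the doxycycline array at 24 h gave an adjusted p of 0.0176 for Uhrf1 and 0.0481 for Slbp, and leaving out the mutant array one of 0.0276 for Chaf1a. Those fits set 1 array against 1 at 24 h, take the spread from the 0 h doxycycline and mutant arrays alone, and called 0.885% and 1.72% of all probe sets higher. The wild-type signals of Chaf1a (21.6) and Uhrf1 (23.0) at 24 h were near the floor of 16.4. With log2(signal + 16) in place of the floor, the differences were 0.99 for Chaf1a, 0.73 for Uhrf1 and 0.65 for Slbp. The median difference of the 24 members at 24 h was 0.18 log2 units, against 0.04 for all probe sets tested.

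Counting arrays with no test, Cdt1 was the only tested member at least 2-fold under the wild-type array with both doxycycline and mutant p300 at 24 h (1.30% of all probe sets tested), and Chaf1a the only one at least 2-fold above it (0.386%). For Chaf1a the wild-type signal at 24 h, 21.6, was near the floor of 16.4. Among the untested members Prim2 was at least 2-fold under and Orc2 at least 2-fold above the wild-type array in both, with values near the floor. At 0 h no tested member was 2-fold apart in both, where the background was 0.338% lower and 0.177% higher. Both differences share the wild-type array, so they are not separate evidence.

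**Figure D4:**
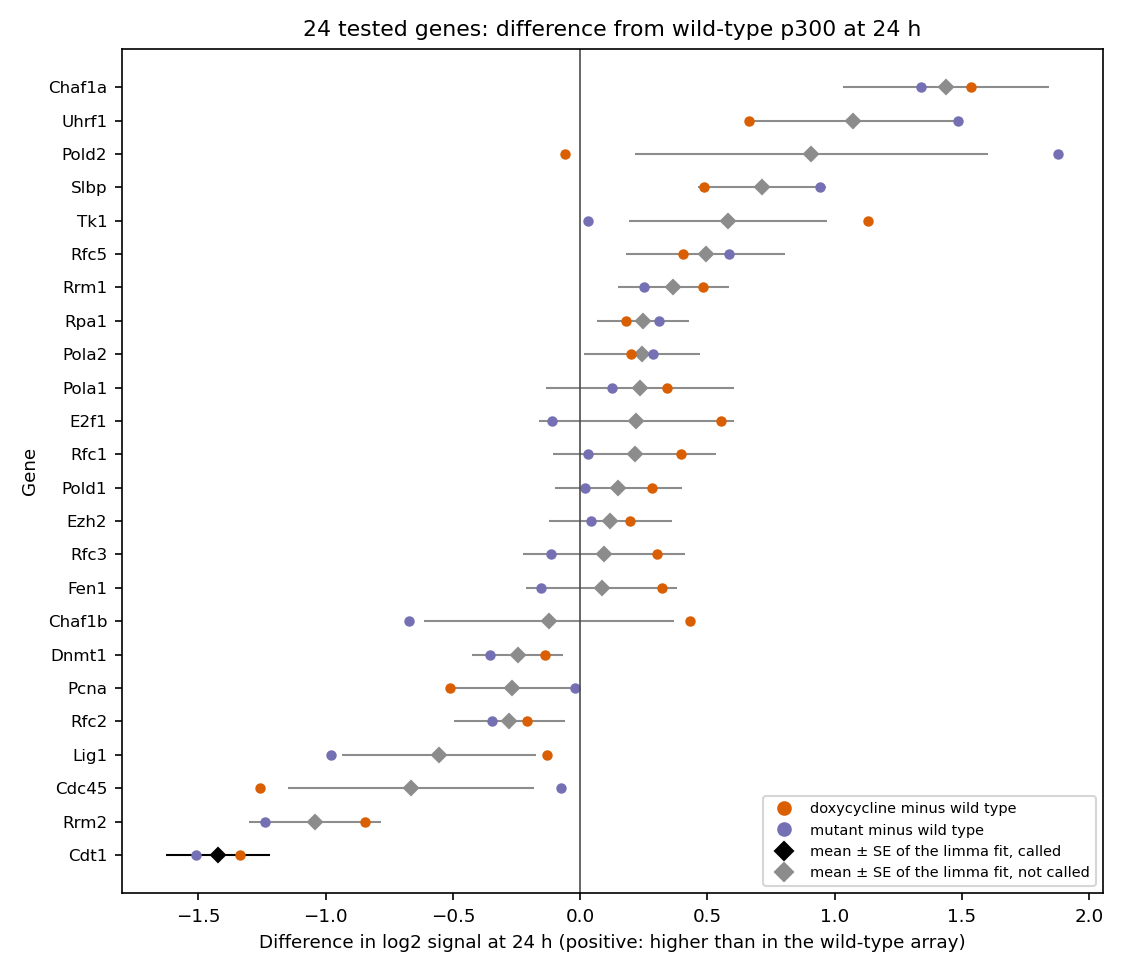
Difference in log2 signal at 24 h from the wild-type array for the 24 tested genes: orange, doxycycline; purple, mutant; diamonds, their mean ± SE of the limma fit (black where called). Cdt1 is the only black diamond, at -1.42, with both treatments under -1.3, and Pold2 and Tk1 have their treatments far apart.

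The doxycycline and mutant treatments, both of which end in death, gave signals at least 2-fold apart for a few members at 24 h, with 1 array each and no test. The doxycycline signal was at least 2-fold above the mutant one for Tk1 (231.8 against 107.9) and Chaf1b (74.8 against 34.8), where the background was 1.34%. It was at least 2-fold under the mutant one for Cdc45 (35.4 against 80.3) and Pold2 (62.2 against 238.7), where the background was 0.934%. Of the untested members Brca1 was above (61.1 against 19.1). Chaf1b read 55.5 with wild-type p300, between the other arrays. In the other genes the wild-type array lay near one of them: Tk1 (105.7), Cdc45 (84.6) and Brca1 (20.2) near mutant p300, and Pold2 (64.9) near doxycycline.

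Over the 6 arrays the mean profile of the 24 members, as centred log2 signals, was -0.53 with doxycycline, -0.60 with mutant and -0.67 with wild-type p300 at 24 h, against 0.53, 0.71 and 0.56 at 0 h. The member most like that mean was Pola1 (Pearson r = 0.996 over 6 arrays), and the least alike were Rfc3 (0.31), E2f1 (0.42) and Cdt1 (0.44). Outside the 40 genes, the 5 tested genes most like it were Ttk (r = 0.999), Mcm7, Hmgb2, Usp1 and Ect2 (r of 0.997 to 0.998). The 6 points fall into 2 times, so these correlations describe mostly the step between the times.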

How the data were processed

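Total RNA of each culture was labelled with biotin and hybridised to an Affymetrix array, 1 array for each of 3 treatments and 2 times. Per the submitters' processing notes the deposited values are MAS5 signals, that is, linear intensity for each probe set (neither version nor settings are stated, and detection calls were not analysed here). No further scaling was applied, and 66 control probe sets were dropped. Gene symbols came from the platform annotation, and their names and the promoter windows from RefSeq (GRCm38.p6); of 12422 probe sets 10833 had 1 symbol, 396 several and 1193 none.

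Signals under the 25th percentile (16.4) were raised to it and log2 was taken. Tests used lmFit and eBayes of limma 3.58.1 (R 4.3.3) with a variance trend, 2-sided, and Benjamini-Hochberg adjustment over all probe sets tested. The time effect (24 h minus 0 h) had treatment as a block, since each treatment was sampled at both times. The outcome effects at 24 h and 0 h (mean of doxycycline and mutant minus wild type) and their interaction were contrasts between 4 outcome-by-time means, with 2 residual degrees of freedom. Precision is limited by the number of arrays. The fits were also run on simulated arrays with known changes and independent noise. Those arrays held no other treatment differences, so they do not show how the fits behave where such differences exist. Figures were drawn with matplotlib 3.10.9.

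The members and the gene lists were chosen with earlier results of these data known. All 40 genes are accounted for. Values on every array are given for the 12 largest called time changes and for tested members not called or with a differing sign. They are also given for members 2-fold from wild type in both other treatments at 24 h. Chaf1b and the untested members other than Orc1, Exo1 and Dbf4 were given so as well, chosen after their values were seen. Orc1 and Exo1 are given as ranges, and Dbf4 only as under the floor. Of each list the 2 largest changes and calls against the list's median are named; in the repair list, whose median was near 0, all 5 calls are. Alternatives were the filter on dim probe sets, the floor, log2(signal + 16), quantile normalization, scaling to spike-in controls, no variance trend, the mean of a gene's probe sets, no block for the time effect, treatment as a block for the interaction and a looser filter (both chosen after the data were seen), and leaving out each array.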

Additional observations from a re-analysis of the deposited data

Results flagged for a closer look

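The change of Cdt1 over 24 h differed in sign between the treatments on its brighter probe set, with a value near 0 in the surviving cells. The log2 change was -0.65 with doxycycline and -1.11 with mutant p300, against 0.0651 with wild-type p300. On the second tested probe set all treatments had the same sign, with -1.45 with doxycycline and -1.28 with mutant, against -0.08 with wild-type p300. The interaction of the brighter probe set was -0.94 log2 units (limma unadjusted p = 0.0100, adjusted p = 1.0), and under the alternatives its adjusted p ran between 0.0551 and 1.0.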

How the results depend on the processing

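Of 360 changes over time recomputed for the tested members under the alternatives, 312 kept their direction and their side of the threshold, 44 kept their direction and lost their call, 4 gained one, and 0 reversed. With no filter on dim probe sets 0 members were called lower over time, as were 0 of all 12422 probe sets (2030 at an unadjusted p under 0.05), and 0 were called lower between the outcomes at 24 h; the cause was not tested. The count of members lower over time was 20, and 14 with no replicate block, where Cdc45, Chaf1a, Chaf1b, Pold2, Rfc2 and Slbp were lost; leaving out each array gave 16 to 21, and no variance trend 18, without Cdc45 and Rfc2. Scaling to spike-in controls also gave 20, losing Rfc2 and gaining Cdt1, and moved the median of all probe sets to -0.12 over time; the members' median change was then -1.20. At 24 h the count of members lower in the dying cells was 1, 2 when scaled to spike-in controls (with Rrm2), where 6.76% of all probe sets were called lower against 0.724%, and 0 with no variance trend. Leaving out each array gave 1 to 3 lower and 0 to 3 higher, while the calls over all probe sets ran from 42 to 244 lower and 3 to 107 higher; without a dying array 1 residual degree of freedom remains and the spread comes from the other time's pair: Rrm2 joined Cdt1 without the doxycycline or mutant array of either time, Cdc45 also without the mutant array of 24 h, when Chaf1a and Tk1 were called higher, and Slbp, Pold2 and Uhrf1 were called higher without the doxycycline array of 24 h. With treatment as a replicate block, chosen after the data were seen, the interaction called 1 member lower, Rrm2 (37 of all probe sets lower, 16 higher). Without the wild-type array of 24 h the outcome effect at 24 h could not be fitted, nor that at 0 h without its wild-type array, nor the interaction without either. Dim signal limits the 14 untested members, and 1 array for each treatment and time limits all comparisons.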
